A study of Homo sapiens with 18 samples.

Results

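The thapsigargin response of parental L3.6pl pancreatic cancer cells (Par) was measured in 6 of the 18 RNA-seq libraries of the study, 3 from cells given thapsigargin and 3 from cells given vehicle, chosen by their sample labels. L3.6pl is an established, metastatic human pancreatic cancer line. The cells of all 6 libraries had received a control siRNA (siCont) 48 h before harvest and either DMSO, the vehicle, or 500 nM thapsigargin for the last 3 h. The other 12 libraries came from GemR, a gemcitabine-resistant derivative that is a single line and was kept in 64 nM gemcitabine, with siCont or with an siRNA against STIM1 (siSTIM1) for the same 48 h and with the same 3 h treatments, 3 libraries in each group. Those libraries enter here through the shared estimate of the spread and through the tests of whether Par cells responded differently. The labels do not say whether replicates were separate cultures, so the p-values measure the spread between libraries only.

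Thapsigargin blocks SERCA, the pump that fills the endoplasmic reticulum (ER) with calcium, so the store drains into the cytosol. Loss of ER calcium hampers the calcium-dependent chaperones, and misfolded proteins then engage the 3 sensors of the unfolded protein response. PERK phosphorylates eIF2alpha, which slows general translation and favours that of ATF4. IRE1, encoded by ERN1, splices XBP1 mRNA, and ATF6 is cut in the Golgi into a transcription factor. Emptying of the store also opens calcium entry through STIM and ORAI proteins, and cytosolic calcium can act on calcineurin, NFAT factors and immediate early genes.

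The 6 libraries held 8922439 to 15128178 reads counted on genes, and their 10 most abundant genes took 3.36% to 4.22% of the counts. Of 23 listed ductal and epithelial markers, 21 had a mean of at least 10 normalized counts over the 18 libraries. The keratin gene KRT19 lay between 19189 and 21887 normalized counts and EPCAM between 5569 and 6486, while CDH1 was far lower. The mesenchymal marker VIM was abundant too, with a vehicle mean of 9011. Of the fibroblast markers, DCN, FAP and POSTN were at 0 in all 6 libraries, as were CD3E and MS4A1 of lymphocytes and INS, GCG and SST of endocrine cells. Other members of these lists were expressed. COL3A1 of the fibroblast list had a vehicle mean of 7349 normalized counts. CDH5, CD68 and PECAM1 of the immune and endothelial list had vehicle means of 134, 138 and 129. The summed fibroblast list, which includes collagen genes that these cells express, took 0.0724% ± 0.00083 of counts in vehicle and 0.0722% ± 0.0017 in thapsigargin (mean ± SD, n = 3), and the immune and endothelial list 0.00307% ± 2.8e-05 and 0.00279% ± 0.00023. In such bulk RNA, fewer cells of a kind and less RNA per cell cannot be told apart.

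Within 3 h thapsigargin changed a large share of the genes. Of 13096 genes with a mean of at least 10 normalized counts, 2679 rose (20.5%) and 2574 fell (19.7%) at an adjusted p under 0.05 (limma on log2(normalized count + 1), Benjamini-Hochberg). The 3 thapsigargin values lay wholly above or below the 3 vehicle values for 5153 of these 5253 genes. More genes were called higher than lower, but quantile normalization gave 2360 higher and 3247 lower, and an adjustment for transcript length in each library 2383 and 3352. At least 2-fold changes were called for 628 genes upward and 205 downward, at least 4-fold changes for 128 and 11, and at least 16-fold changes for 10 and 0. The median log2 fold change over all tested genes was −0.02. Below, values in brackets or after "rose by" are log2 fold changes of thapsigargin over vehicle with their standard errors, normalized counts are given for libraries 1, 2 and 3 in that order, and "called" means an adjusted p under 0.05 in that fit.

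In the PERK arm, EIF2AK3, which encodes PERK itself, read 726, 766 and 715 in the vehicle libraries and 3376, 3204 and 3281 in the thapsigargin libraries (log2 fold change 2.16 ± 0.07). Its effector ATF4, a bZIP activator of amino acid and stress genes, read 2548, 2728 and 2602 in the vehicle libraries and 10738, 10847 and 11252 in the thapsigargin libraries (2.06 ± 0.07, adjusted p = 3.3e-14, limma with Benjamini-Hochberg). For both genes the spread inside a group was a small part of the gap between the groups. CEBPB, a bZIP partner of ATF4, read 244, 226 and 230.2 in the vehicle libraries and 1794, 1606 and 1808 in the thapsigargin libraries, a log2 fold change of 2.89 ± 0.09. PPP1R15A, the GADD34 subunit that directs a phosphatase to eIF2alpha and so ends the translational block, read 687, 946 and 731 in the vehicle libraries and 7709, 7523 and 7168 in the thapsigargin libraries (3.26 ± 0.11). DDIT3, the pro-apoptotic factor CHOP, stood at 169, 159 and 188 in vehicle and at 6508, 6819 and 6868 after thapsigargin. Of the 21 listed sensors and transcription factors of the response, 14 rose and 1 fell, with a median log2 fold change of 0.90. The 1 that fell was ATF5, a relative of ATF4, at −0.33 ± 0.09, and EIF2S1, the gene of eIF2alpha itself, read 1603, 1658 and 1460.0 in the vehicle libraries and 1397, 1452 and 1439 in the thapsigargin libraries (−0.14 ± 0.08, not called).

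The genes that carry out the ATF4 programme moved together: 19 of 20 rose, 0 fell, and their median log2 fold change was 2.26. Together they took 0.189% ± 0.0026 of all counts in vehicle and 0.676% ± 0.0051 after thapsigargin (mean ± SD, n = 3). CHAC1, a glutathione-degrading enzyme, had the largest log2 fold change among genes reaching a group mean of 50 with non-overlapping groups, from 21.3, 28.2 and 23.4 to 3046, 3353 and 3089. ADM2, the peptide hormone adrenomedullin 2, read 93.4, 131 and 113 in the vehicle libraries and 2560.1, 2566 and 2378 in the thapsigargin libraries (4.48 ± 0.12). STC2, the secreted glycoprotein stanniocalcin 2, read 1105, 1211 and 1218 in the vehicle libraries and 14558, 15024 and 14842 in the thapsigargin libraries (3.65 ± 0.05), which left a wide gap between the groups. TRIB3, a pseudokinase that restrains ATF4 and AKT, rose by 3.27 ± 0.09, and DDIT4, an inhibitor of mTORC1, by 3.38 ± 0.08. Secreted stress signals were part of the rise. FGF21, a hormone of starvation, went from 12.2, 11.9 and 15.6 to 99.2, 105 and 119 (2.94 ± 0.34). GDF15, a growth factor that suppresses appetite, read 1264, 1193 and 1403 in the vehicle libraries and 5868, 5807 and 5431 in the thapsigargin libraries (2.15 ± 0.12), and VEGFA, the angiogenic factor, 1239.6, 1245 and 1276 in the vehicle libraries and 6449, 6373 and 6761 in the thapsigargin libraries (2.38 ± 0.06). EIF4EBP1, a translation repressor, was the 1 member that was not called, at 0.13 ± 0.11.

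A binding sequence for ATF4 with a C/EBP partner has the core TGATGNAA, and a few of the promoters that hold it are shown because their genes rose at least 2-fold. Promoter windows were the 250 bases before each RefSeq start (GRCh38.p14), and both strands were searched. The core stood in 23 of 495 promoters of genes called at least 2-fold higher (4.65%), in 4 of 147 of those at least 2-fold lower (2.72%), in 2.26% of the 10382 tested genes with a promoter and in 3.89% of all 27305 genes in the table. Capitals mark the match. A match is a description of the letters, not evidence of binding.
HERPUD1, chr16:56931941-56931998, plus strand: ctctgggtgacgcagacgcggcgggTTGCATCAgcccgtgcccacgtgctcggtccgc
ATF3, chr1:212565191-212565248, plus strand: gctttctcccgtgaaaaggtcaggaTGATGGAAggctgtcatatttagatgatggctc
FGF21, chr19:48755445-48755502, plus strand: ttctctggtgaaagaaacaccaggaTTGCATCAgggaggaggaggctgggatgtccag
CEBPG, chr19:33374046-33374103, plus strand: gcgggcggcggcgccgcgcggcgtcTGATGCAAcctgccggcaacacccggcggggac
Of these 4 genes, HERPUD1, whose product recruits the degradation machinery at the ER, read 976, 939.6 and 937 in the vehicle libraries and 29804, 28964 and 28741 in the thapsigargin libraries (4.94 ± 0.06). ATF3, a stress-induced repressor, read 58.9, 111 and 89.7 in the vehicle libraries and 1968, 1801 and 1639.6 in the thapsigargin libraries (4.41 ± 0.16). CEBPG, a C/EBP member that pairs with ATF4, read 944, 1033 and 952 in the vehicle libraries and 3122, 2932 and 3029 in the thapsigargin libraries (1.63 ± 0.06). In each of them, and in FGF21, all 3 thapsigargin values exceeded all 3 vehicle values.

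**Figure D1:**
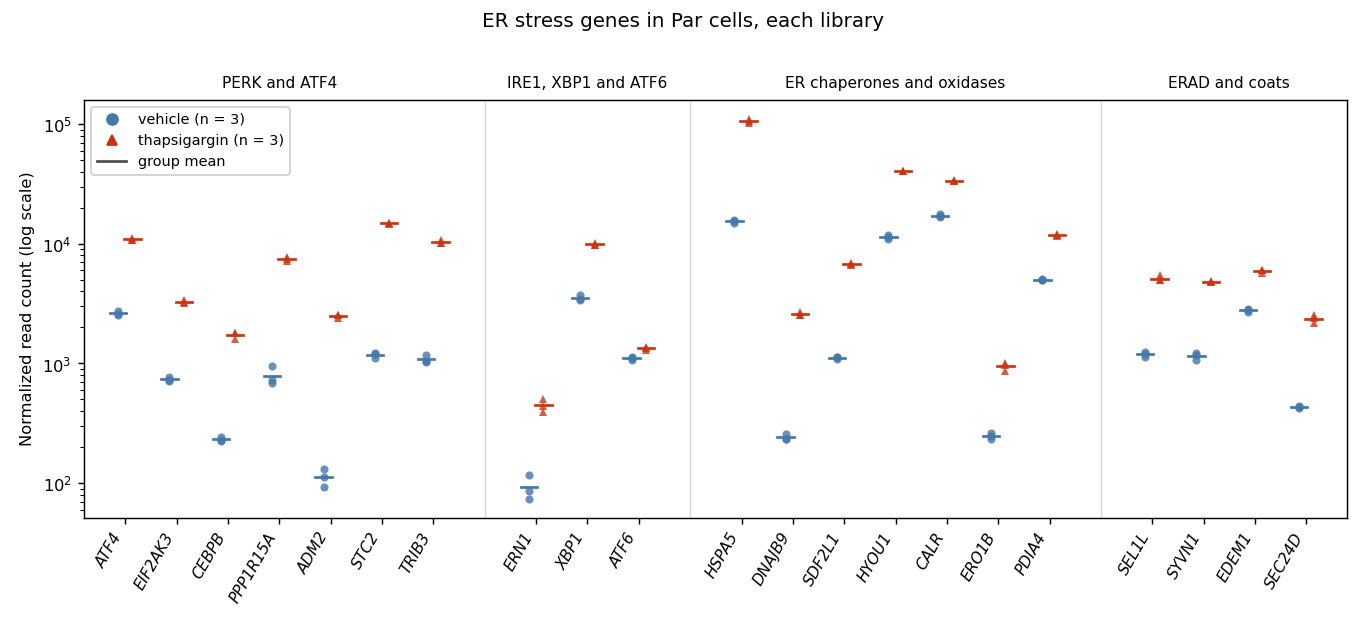
Normalized read counts on a log axis of 21 ER stress genes in each Par library, blue circles for the 3 vehicle and red triangles for the 3 thapsigargin libraries, with a bar at each group mean. The groups are separate for every gene shown, from the small change of ATF6 (0.27 on the log2 scale) to that of ADM2 (4.48).

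Of the genes of the IRE1 and ATF6 arms, ERN1 read 85.3, 74.2 and 116 in the vehicle libraries and 502, 442 and 396 in the thapsigargin libraries (2.29 ± 0.34), and XBP1, all splice forms counted as 1 gene, 3470.0, 3715 and 3383 in the vehicle libraries and 10255, 9863 and 9876 in the thapsigargin libraries (1.51 ± 0.08). The splicing of XBP1 was not analysed here. ATF6 itself changed least of the sensors, from 1077, 1131 and 1122 to 1378, 1304 and 1342 (0.27 ± 0.06, adjusted p = 0.0011, limma with Benjamini-Hochberg), and it was not called with a length term for each library, a setting described below with the mitochondrial genes (0.087). The known target mRNAs of IRE1 cleavage gave no common direction: of 6 tested, BLOC1S1, the best described of them, fell from 178, 223 and 162 to 98.2, 109 and 125 (−0.75 ± 0.17), SCARA3 fell (−0.77 ± 0.14), and PMP22 rose (0.49 ± 0.11).

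Of 20 ER chaperones and cochaperones, 16 rose and 0 fell, with a median log2 fold change of 1.28. Their share of all counts went from 0.945% ± 0.016 to 2.3% ± 0.031 (mean ± SD, n = 3). Much of that share was HSPA5, the ER Hsp70 BiP, which took 0.114% to 0.119% of the reads in the vehicle libraries and 0.727% to 0.778% in the thapsigargin libraries. DNAJB9, a BiP cochaperone that also dampens IRE1, had the largest relative rise of the list, from 233, 257 and 233 to 2553, 2564 and 2675 (3.42 ± 0.10). SDF2L1, which keeps BiP in its cycle with cochaperones, read 1141, 1139 and 1081 in the vehicle libraries and 6619, 6925 and 6757 in the thapsigargin libraries (2.59 ± 0.13). HYOU1, the nucleotide exchange factor of BiP, read 10931, 11454 and 11815 in the vehicle libraries and 40771, 40901 and 40612 in the thapsigargin libraries (1.84 ± 0.06). In none of these genes did the groups overlap. CRELD2 (1.58 ± 0.11) and MANF (1.58 ± 0.13), small ER proteins released on calcium loss, rose alike, and CALR, the calcium-binding lectin chaperone calreticulin, rose less (0.98 ± 0.06). CNPY3 and CNPY2, of the canopy family of ER proteins, were not called, at 0.05 ± 0.09 and −0.30 ± 0.13.

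The ER stress element, CCAAT and CCACG separated by 9 bases, is the textbook site for ATF6 with NF-Y. It was rare, and most of the tested genes that hold it rose. It stood in 25 of 27305 gene promoters (0.0916%), in 16 of the 10382 tested ones (0.154%), in 9 of 495 of genes at least 2-fold higher (1.82%), in 0 of 147 of those at least 2-fold lower, and in 5 of 18 ER chaperone promoters (27.8%). Of the 16 tested genes that hold it, 14 rose and 0 fell, and their median log2 fold change was 1.05. The 2 that were not called were TMEM120A and ZNF17, named here after their values were seen. The shorter variant, ATTGG and CCACG 1 base apart, stood in 14 tested promoters, of whose genes 8 rose and 0 fell. Sites of both kinds are shown with the match in capitals, as the gene's own strand reads, for genes whose promoter stretch overlaps no annotated exon.
HSPA5, chr9:125241366-125241434, minus strand: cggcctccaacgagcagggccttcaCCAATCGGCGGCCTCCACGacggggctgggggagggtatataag
FICD, chr12:108515098-108515166, plus strand: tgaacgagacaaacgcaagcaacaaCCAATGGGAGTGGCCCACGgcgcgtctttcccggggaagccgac
ERO1B, chr1:236282158-236282208, minus strand: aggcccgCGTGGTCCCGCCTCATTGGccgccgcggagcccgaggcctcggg
CRELD2, chr22:49918529-49918597, plus strand: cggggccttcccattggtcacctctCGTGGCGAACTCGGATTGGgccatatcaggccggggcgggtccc
SDF2L1, chr22:21642089-21642149, plus strand: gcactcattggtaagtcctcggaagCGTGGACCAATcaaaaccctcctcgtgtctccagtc
HYOU1, chr11:119057249-119057309, minus strand: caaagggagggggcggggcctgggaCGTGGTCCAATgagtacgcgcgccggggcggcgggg
In HSPA5 and FICD the capitals read CCAAT first, and in ERO1B and CRELD2 the same element lies in the opposite orientation. FICD encodes the enzyme that attaches AMP to BiP and removes it. It rose from 55.8, 52 and 53.6 to 384, 399 and 378 (2.83 ± 0.26). HSPA5 read 15483, 15815 and 14944 in the vehicle libraries and 111138, 106362 and 103042 in the thapsigargin libraries (2.79 ± 0.06), and CRELD2 1164, 1155 and 1125 in the vehicle libraries and 3368, 3479 and 3434 in the thapsigargin libraries.

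Oxidative folding genes rose less as a group than the chaperones, with 11 of 18 called higher, 0 lower and a median of 0.24. ERO1B, an oxidase that recharges the disulfide isomerases, read 247, 263 and 232 in the vehicle libraries and 973, 862 and 1001 in the thapsigargin libraries (1.93 ± 0.09). PDIA4, an isomerase bound to BiP, read 5024, 5117 and 4949 in the vehicle libraries and 12001, 11966 and 11719.5 in the thapsigargin libraries (1.24 ± 0.05). TXNDC11 (1.09 ± 0.07) and PDIA5 (0.75 ± 0.09) followed, while TMX1 and ERP29, other members of the thioredoxin family in the ER, were at −0.07 ± 0.06 and 0.07 ± 0.11 and were not called.

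ER-associated degradation, which exports misfolded proteins to the proteasome, rose in 18 of 28 tested genes and fell in 2, with a median of 0.39. The largest changes after HERPUD1 were in the ubiquitin ligase complex of the ER membrane. SEL1L, its scaffold, read 1143, 1195 and 1245 in the vehicle libraries and 5469, 4970.4 and 4948 in the thapsigargin libraries (2.10 ± 0.10), and SYVN1, its catalytic subunit HRD1, 1064, 1177 and 1218 in the vehicle libraries and 4817, 4785 and 4892 in the thapsigargin libraries (2.07 ± 0.07). All thapsigargin values of both subunits lay above all vehicle values. EDEM1, a lectin that hands glycoproteins over, rose by 1.10 ± 0.09, and VCP, the ATPase that pulls substrates out, by 0.42 ± 0.05. The ubiquitin-conjugating enzyme UBE2G2 fell (−0.35 ± 0.07).

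The entry and exit of ER cargo rose broadly but by small steps. Of 30 genes of the translocon, signal peptidase and glycosylation, 21 rose and 1 fell (median 0.36). GFPT1, the rate-limiting enzyme of hexosamine synthesis, stood apart at 1988, 2032 and 2042 in the vehicle libraries and 7321, 6979.8 and 7368 in the thapsigargin libraries (1.84 ± 0.07), whereas SEC61A1, the channel of the translocon, rose by 0.70 ± 0.05. Of 24 coat genes for transport between ER and Golgi, 15 rose and 0 fell (median 0.36). SEC24D, a cargo adaptor of COPII vesicles, read 435, 428 and 439.9 in the vehicle libraries and 2527, 2176 and 2399.6 in the thapsigargin libraries (2.44 ± 0.08). The outer coat gene SEC31A rose by 1.09 ± 0.10 and KDELR2, the receptor that returns ER proteins, by 0.31 ± 0.06.

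**Figure D2:**
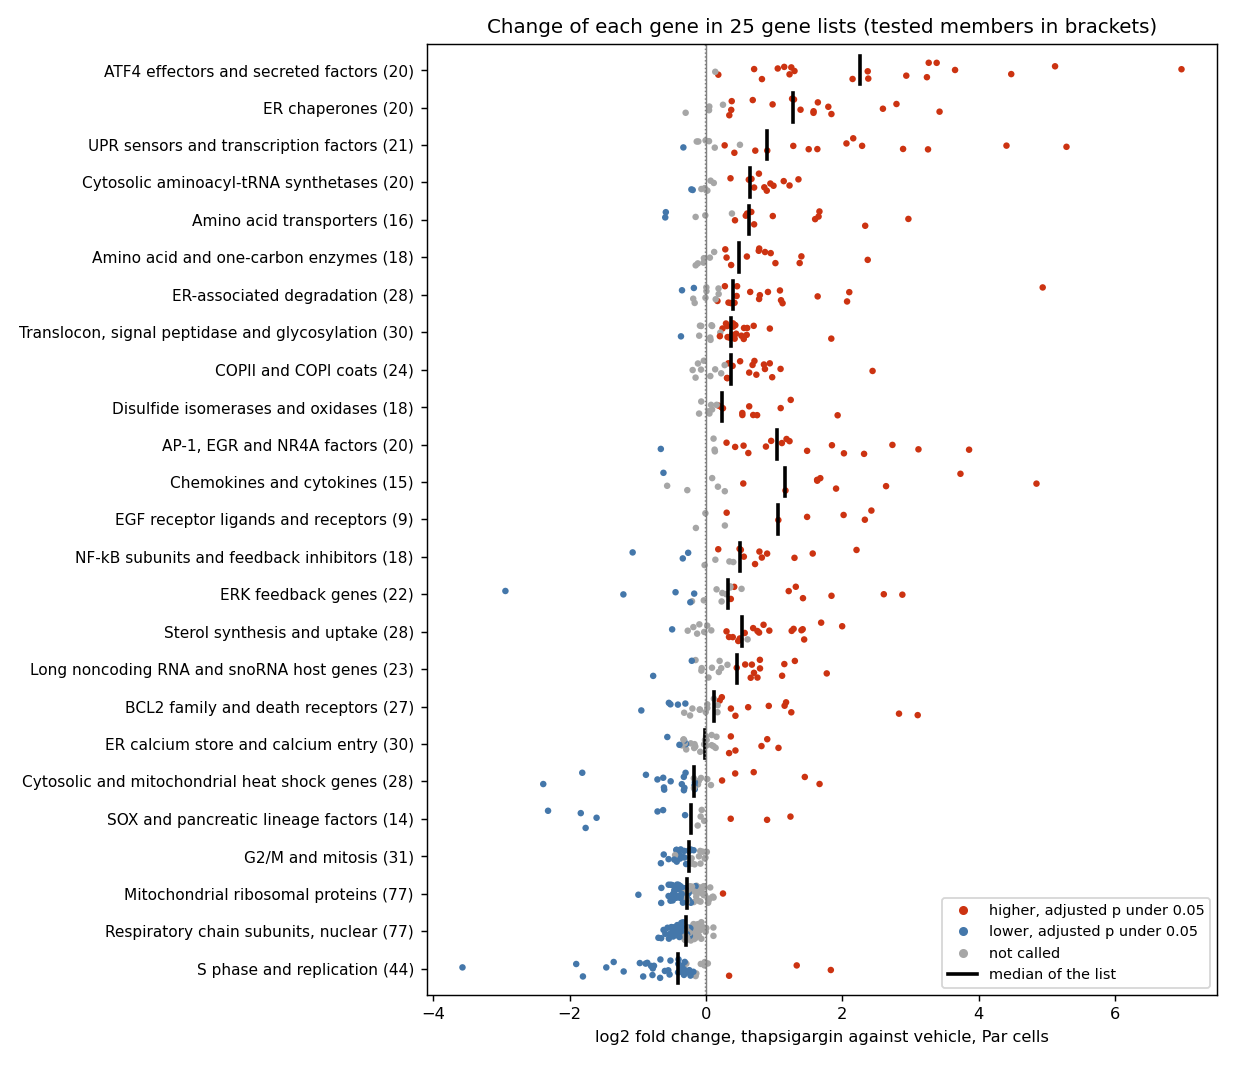
Log2 fold change in Par cells of every tested member of 25 gene lists, each dot 1 gene, red if called higher, blue if called lower and grey if not called, with a black bar at the list's median; the dotted line is the median of all tested genes. The ATF4 effectors lie farthest to the right (median 2.26) and the S phase genes farthest to the left (median −0.41).

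Genes of amino acid supply rose. Among 16 amino acid transporters 11 rose and 2 fell. SLC38A2, a sodium-coupled carrier of small neutral amino acids, read 2869, 2834 and 3035 in the vehicle libraries and 24341, 22104 and 21980.3 in the thapsigargin libraries (2.97 ± 0.09). SLC7A11, the cystine importer, read 4267, 4293 and 4538 in the vehicle libraries and 14194, 13196 and 13732 in the thapsigargin libraries (1.65 ± 0.11). Its partner chain SLC3A2 rose by 0.60 ± 0.07. The glutamate carrier SLC1A3 fell (−0.59 ± 0.10), as did SLC36A1, a proton-coupled lysosomal carrier (−0.60 ± 0.14). Among 18 enzymes of amino acid and one-carbon metabolism 12 rose and 0 fell. CTH, which makes cysteine from cystathionine, read 392, 381 and 386 in the vehicle libraries and 2179.6, 1984 and 1860.0 in the thapsigargin libraries (2.37 ± 0.09). PSPH, the last enzyme of serine synthesis, rose by 1.40 ± 0.10, the mitochondrial folate enzyme MTHFD2 by 1.37 ± 0.05 and asparagine synthetase ASNS by 0.77 ± 0.06.

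The cytosolic aminoacyl-tRNA synthetases, which charge tRNAs for the ribosome, rose in 12 of 20 (median 0.65). WARS, the tryptophan enzyme, read 3412, 3846 and 3741 in the vehicle libraries and 9309, 9464 and 9334 in the thapsigargin libraries (1.36 ± 0.06), and the cysteine, glycine and alanine enzymes CARS, GARS and AARS rose by 1.22 ± 0.07, 1.14 ± 0.06 and 0.99 ± 0.05. KARS, for lysine, fell slightly (−0.20 ± 0.06), with an adjusted p of up to 0.059 when 1 library was left out (limma with Benjamini-Hochberg). The mitochondrial counterparts did not share the rise: 1 of 17 rose, 2 fell, and their median was −0.06, near that of all genes. The difference between these 2 lists was not tested.

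The calcium store's own genes changed little as a group: of 30 tested, 6 rose and 4 fell, a share near the 20.5% and 19.7% of all genes, and the median was −0.02. ATP2A2, the SERCA2 pump that thapsigargin inhibits, rose from 6053, 6467 and 6937 to 13847, 13343 and 13386 (1.06 ± 0.11). ATP2B1, the pump that expels calcium at the plasma membrane, read 2255, 2483 and 2228 in the vehicle libraries and 4569.7, 4161 and 4242 in the thapsigargin libraries (0.90 ± 0.08). The release channel gene ITPR1 rose (0.81 ± 0.25), and ITPR3 was at 0.08 ± 0.15, not called. Of the entry machinery, the channel gene ORAI1 fell from 483, 503 and 471 to 422, 369 and 377 (−0.32 ± 0.10, adjusted p = 0.016, limma with Benjamini-Hochberg), ORAI2 fell alike (−0.39 ± 0.13), and the store sensors STIM1 (−0.09 ± 0.10) and STIM2 were not called. When 1 library was left out the adjusted p reached 0.053 for ITPR1, 0.065 for ORAI1 and 0.1 for ORAI2 (limma with Benjamini-Hochberg). CALM3, 1 of 3 genes for calmodulin, fell from 4309.6, 4236 and 4426 to 2725, 3000.0 and 3031 (−0.57 ± 0.06).

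Of 12 tested genes of the calcineurin and NFAT list, 6 were higher and 0 lower in Par cells, with a median of 0.15. Quantile normalization left 3 higher, and the length term gave 4 higher and 3 lower. NFATC2, a factor that calcineurin sends to the nucleus, read 186, 270.2 and 178 in the vehicle libraries and 682, 597 and 544 in the thapsigargin libraries (1.54 ± 0.19). RCAN1, a calcineurin inhibitor that NFAT induces, read 172, 169 and 131 in the vehicle libraries and 534, 385 and 425 in the thapsigargin libraries (1.5 ± 0.12). The vehicle libraries of both genes differed among themselves, and every thapsigargin value was above them. NFATC1 overlapped between groups, 67, 46 and 61.4 against 70.8, 63.7 and 49.9, and was not called (0.08 ± 0.17).

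Immediate early transcription factors rose in 16 of 20 genes of the AP-1, EGR and NR4A families, 1 fell, and the median was 1.03. EGR1, a zinc finger factor of serum and stress responses, read 740.1, 815 and 837 in the vehicle libraries and 3811, 4136 and 3978 in the thapsigargin libraries (2.32 ± 0.09). EGR3, a relative, went from 16.2, 44.5 and 32.2 to 273, 258 and 238 (3.12 ± 0.29). The orphan nuclear receptors NR4A2, at 84.3, 120.2 and 121 in the vehicle libraries and 721, 687 and 745 in the thapsigargin libraries (2.73 ± 0.17), and NR4A1, at 797, 1321 and 1109.9 in the vehicle libraries and 2928, 3019 and 2887 in the thapsigargin libraries (1.48 ± 0.14), rose as well. The AP-1 subunits rose less: FOSB read 138, 303 and 196 in the vehicle libraries and 474, 467 and 435 in the thapsigargin libraries (1.18 ± 0.21), and FOS 339, 286 and 345 in the vehicle libraries and 413, 446 and 444 in the thapsigargin libraries (0.43 ± 0.14, adjusted p up to 0.095 in limma with Benjamini-Hochberg when 1 library was left out). NAB2, a corepressor of EGR factors, fell (−0.66 ± 0.11). For FOSB and NR4A1 the vehicle libraries differed among themselves, library 1 being lowest and library 2 highest, and all thapsigargin values were above them.
The CArG box, which binds serum response factor, stood in 3 of 16 promoters of this list, in 13 of 495 of genes at least 2-fold higher (2.63%), 3 of 147 at least 2-fold lower (2.04%) and 1.53% of tested promoters. Of those 3 genes of the list, 2 rose and 0 fell. Over the 159 tested genes with the box, 44 rose and 33 fell, and the median was 0.02. The EGR1 and EGR2 boxes are shown because both genes rose at least 4-fold. The RCAN1 box is shown because that gene of the calcineurin and NFAT list rose at least 2-fold. Whether this box has a part in the RCAN1 response was not tested. The EGR1 stretch holds a second CArG box, left in lower case.
EGR1, chr5:138465349-138465408, plus strand: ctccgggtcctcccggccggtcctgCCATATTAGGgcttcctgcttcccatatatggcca
EGR2, chr10:62816403-62816462, minus strand: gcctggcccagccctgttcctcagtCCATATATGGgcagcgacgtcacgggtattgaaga
RCAN1, chr21:34615318-34615363, minus strand: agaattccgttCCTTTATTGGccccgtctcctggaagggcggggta
EGR2, another relative, read 20.3, 29.7 and 28.3 in the vehicle libraries and 99.2, 110.1 and 114 in the thapsigargin libraries (2.02 ± 0.21).

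Among 26 other immediate early genes 19 rose and 4 fell (median 0.80). GADD45A, a stress gene that slows the cell cycle, read 334, 381 and 319 in the vehicle libraries and 2397, 2351 and 2252 in the thapsigargin libraries (2.76 ± 0.10). CTGF, a matricellular target of YAP and SRF, read 1091, 1723 and 1423 in the vehicle libraries and 5618, 5576 and 5498 in the thapsigargin libraries (2.0 ± 0.14). BTG1, an antiproliferative gene, rose by 2.07 ± 0.11 and KLF4 by 1.49 ± 0.11, while KLF10 fell (−0.58 ± 0.08) and MYC, at 0.11 ± 0.07, was not called.

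Of 22 inhibitors of ERK signalling 8 rose and 5 fell, beside 20.5% and 19.7% of all tested genes. The share that fell was near that background. ERRFI1, which binds and inhibits the EGF receptor, read 2361, 3404 and 2538 in the vehicle libraries and 20689, 19901 and 19751 in the thapsigargin libraries (2.88 ± 0.10), and DUSP1, a nuclear phosphatase of MAP kinases, 740.1, 1391 and 807 in the vehicle libraries and 6125, 5661 and 5430.4 in the thapsigargin libraries (2.61 ± 0.17). SPRY1, an inhibitor of receptor tyrosine kinase signals, fell from 480.2, 399 and 449.6 to 58.5, 56.1 and 55.1 (−2.94 ± 0.16). DUSP2 (−1.21 ± 0.18) and the ERK phosphatase DUSP4 (−0.45 ± 0.06) fell. DUSP5, another ERK phosphatase, rose (1.21 ± 0.10). Dual-specificity phosphatases thus moved both ways.

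Of 9 EGF receptor ligand and receptor genes 6 were higher and 0 lower, and the median was 1.06. HBEGF, a membrane-shed ligand, read 1700.5, 2630.3 and 1834 in the vehicle libraries and 10462, 10903 and 11151 in the thapsigargin libraries (2.43 ± 0.11). EREG, epiregulin, read 2187, 3120.2 and 2359 in the vehicle libraries and 11156, 9781 and 9799 in the thapsigargin libraries (2.02 ± 0.13). EPGN, epigen, read 83.2, 83.1 and 81.9 in the vehicle libraries and 454, 395 and 413 in the thapsigargin libraries (2.33 ± 0.34). The vehicle values of HBEGF and EREG were highest in library 2, which was still below every thapsigargin value. The ligand genes TGFA (−0.01 ± 0.07) and BTC (0.28 ± 0.33, named after its values were seen) were not called. AREG rose by 1.48 ± 0.16 and EGFR by 1.06 ± 0.28, and the related receptor gene ERBB2 was at −0.15 ± 0.07, not called. Of 15 tested cytokines 9 rose and 1 fell (median 1.16). CXCL8, the neutrophil chemokine IL-8, read 2482, 4036 and 2312 in the vehicle libraries and 9868, 8445 and 8230.2 in the thapsigargin libraries (1.63 ± 0.20). CXCL3 and CCL20 rose by 2.64 ± 0.25 and 1.91 ± 0.31, CXCL16 fell (−0.62 ± 0.11), and CXCL1 overlapped between groups and was not called (0.17 ± 0.17). IL6 was at 0 in all 6 libraries. Of 18 NF-kB genes 11 rose and 3 fell: NFKBIZ, an atypical IkB that NF-kB induces, read 98.5, 107 and 112 in the vehicle libraries and 526, 448 and 504 in the thapsigargin libraries (2.21 ± 0.16), NFKBIA, the main inhibitor, rose by 0.78 ± 0.12, and NFKBID fell (−1.08 ± 0.22).

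Some death genes rose on both sides of the balance. BBC3, the BH3-only killer PUMA, went from 11.2, 8.91 and 11.7 to 88.8, 100.4 and 106 (3.10 ± 0.21), and PMAIP1, the BH3-only protein NOXA, from 111, 159 and 133 to 939.6, 973 and 935 (2.83 ± 0.12). TNFRSF10B, the TRAIL receptor DR5 that CHOP induces, read 2987, 3537 and 3253 in the vehicle libraries and 8032, 7708 and 7478 in the thapsigargin libraries (1.25 ± 0.07). MCL1, an anti-apoptotic member that NOXA antagonises, rose as well, from 11396, 15199 and 11921 to 30167, 27254 and 27562 (1.15 ± 0.09), and TNFRSF10D, a decoy TRAIL receptor, fell from 762, 882 and 831 to 412, 439 and 427 (−0.95 ± 0.08). Over the whole list of 27 BCL2 family and death receptor genes, 11 rose (7 without thapsigargin library 1) and 5 fell, with a median of 0.11. Over all tested genes 20.5% rose and 19.7% fell, so the share of the list that fell was near that background. BCL2L11, which encodes the CHOP target BIM, was at 0.17 ± 0.11, not called.

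Chaperones of the cytosol and mitochondria fell more often than they rose: 16 of 28 fell and 5 rose (median −0.18). Their share of all counts was 1.41% ± 0.031 in vehicle and 1.06% ± 0.034 after thapsigargin (mean ± SD, n = 3). HSPA8, the constitutive Hsp70 of the cytosol, fell from 47473, 50594 and 46679 to 24153, 26543 and 27945 (−0.88 ± 0.06, adjusted p = 2.1e-09, limma with Benjamini-Hochberg). The inducible Hsp70 genes HSPA1A, at 1289, 1088 and 1219 in the vehicle libraries and 206, 244 and 235 in the thapsigargin libraries (−2.39 ± 0.08), and HSPA1B, at 1221, 1153 and 1168 in the vehicle libraries and 341, 319 and 344 in the thapsigargin libraries (−1.82 ± 0.08), fell most. These 2 genes are near-identical copies, so how reads divide between them is uncertain. DNAJB1, their Hsp40 partner, fell from 2669, 2700.1 and 2774 to 1491, 1721 and 1766 (−0.71 ± 0.06) and HSPH1, a cytosolic exchange factor, fell less (−0.32 ± 0.05). The largest rise of the list was HSPA13 (1.66 ± 0.10), an Hsp70 relative that resides in microsomes, and the mitochondrial Hsp70 gene HSPA9 rose by 0.43 ± 0.05.

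**Figure D3:**
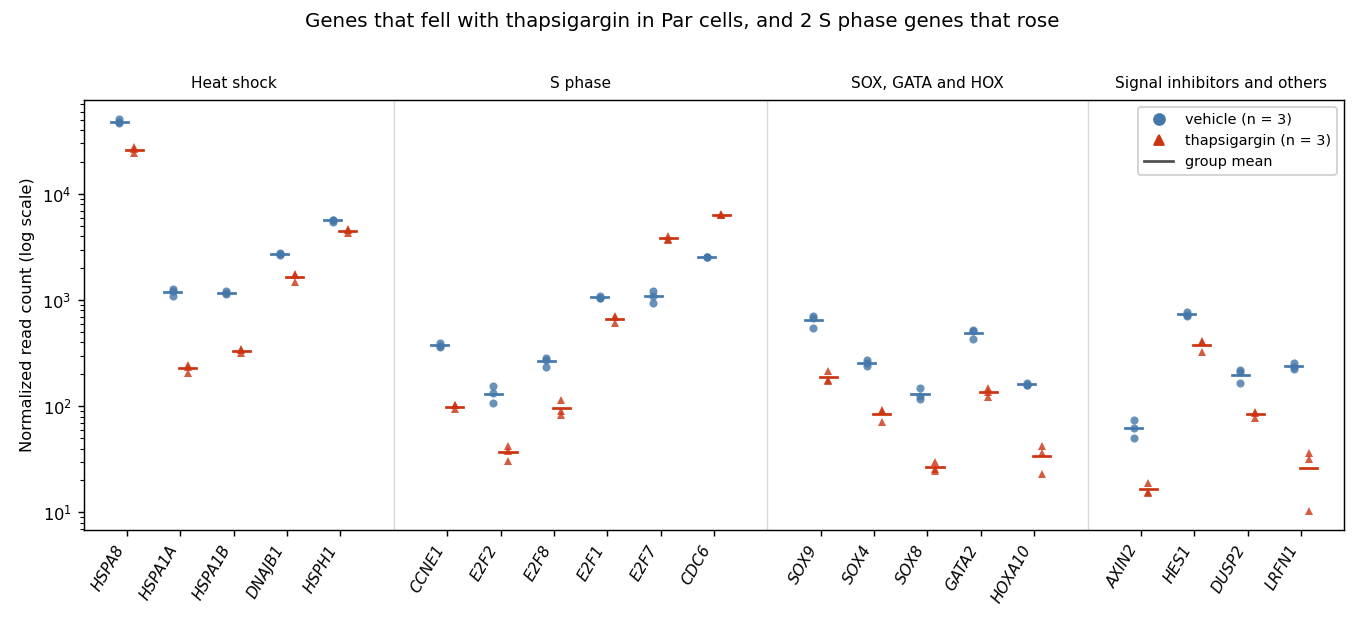
Normalized read counts on a log axis in each Par library of heat shock, S phase, lineage factor and signalling genes, symbols as for the ER stress genes. Most genes shown fell, such as HSPA1A (−2.39 on the log2 scale) and SOX8 (−2.23), whereas E2F7 (1.83) and CDC6 (1.33) rose.

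Genes of S phase fell together: 34 of 44 were lower and 3 higher, with a median of −0.41. CCNE1, the cyclin E that opens S phase, fell from 368, 365 and 391 to 102, 103 and 93.6 (−1.90 ± 0.14). The E2F activator gene E2F2 fell from 134, 107 and 154 to 30.2, 37.8 and 42.6 (−1.81 ± 0.26), and E2F1 (−0.67 ± 0.08) and MCM5, a subunit of the replicative helicase (−0.32 ± 0.06), fell less. The 3 that rose were E2F7, a repressor of the E2F family, at 939, 1107 and 1221 in the vehicle libraries and 4068, 3803 and 3696 in the thapsigargin libraries (1.83 ± 0.16), CDC6, a loader of the helicase, at 2554, 2558 and 2541 in the vehicle libraries and 6527, 6347 and 6368 in the thapsigargin libraries (1.33 ± 0.05), and BRCA1 (0.34 ± 0.11), whose adjusted p reached 0.057 when 1 library was left out (limma with Benjamini-Hochberg). An E2F site, TTTCCCGC on either strand, stood in 9 of 37 S phase promoters (24.3%) against 2.88% of tested promoters. All 9 of those genes fell. Over the 299 tested genes with the site, 81 fell and 50 rose, and the median was −0.03.

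Of 31 genes of G2 and mitosis 0 rose and 18 fell, by smaller amounts (median −0.25). AURKA, a spindle kinase, read 1718, 1606 and 1729 in the vehicle libraries and 1026, 1066 and 1099 in the thapsigargin libraries (−0.66 ± 0.07), CCNB1 (−0.43 ± 0.07) and PLK1 (−0.40 ± 0.06) fell, and TOP2A, the DNA-untangling topoisomerase, was at −0.05 ± 0.10, not called. Of 11 tested G1 cyclin and CDK inhibitor genes 3 rose and 5 fell, beside 20.5% and 19.7% of all tested genes. The inhibitor CDKN1A rose, at 585, 931 and 649 in the vehicle libraries and 2604, 2323 and 2317 in the thapsigargin libraries (1.77 ± 0.14). CDKN2B rose too (1.78 ± 0.10), but the inhibitor CDKN2C fell (−0.82 ± 0.11). CCND1, cyclin D1, fell from 11448, 11326 and 12113 to 7136, 7969 and 7643 (−0.62 ± 0.07). Of 19 p53 targets 9 were higher and 4 lower, beside 20.5% and 19.7% of all tested genes. Only 5 were higher without vehicle library 1 or without thapsigargin library 1 or 2.

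Sterol genes, which SREBP2 controls from the ER membrane, rose in 19 of 28 and fell in 1 (median 0.53). INSIG1, which retains SREBP in the ER, read 218, 295 and 254 in the vehicle libraries and 648, 588 and 588 in the thapsigargin libraries (1.26 ± 0.14). Fatty acid synthesis was less uniform, 7 of 17 higher and 2 lower, and FASN, the synthase, was at 0.23 ± 0.12, not called. Of 29 glycolysis and hypoxia genes 7 rose and 9 fell (5 without thapsigargin library 1 or 3), beside 20.5% and 19.7% of all tested genes. The share that rose was near that background. NDRG1, a hypoxia-induced gene, read 737, 877 and 653 in the vehicle libraries and 2396, 2115 and 2046 in the thapsigargin libraries (1.54 ± 0.09), and the glycolytic enzymes PGAM1, LDHA and TPI1 fell (−0.46 ± 0.09, −0.44 ± 0.06 and −0.35 ± 0.08).

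Of 77 mitochondrial ribosomal protein genes 39 were lower and 1 higher (median −0.28), and of 77 nuclear genes for respiratory chain subunits 32 were lower and 0 higher (median −0.30). Without vehicle library 1 the latter count was 18, and without thapsigargin library 1 it was 21. MRPL34 (−0.99 ± 0.14) and NDUFA2 (−0.66 ± 0.15) were among the larger falls. The cytosolic ribosomal protein genes stayed nearer the middle, with 1 of 84 higher, 4 lower and a median of −0.12. That lower count depends on scaling, with 39 under quantile normalization and 1 or 2 without any 1 library. These are short transcripts, and short transcripts as a class were lower after thapsigargin. Over 11790 protein-coding genes, the fifth with the shortest transcripts had a median log2 fold change of −0.17 (243 higher, 657 lower of 2358) and the fifth with the longest 0.15 (684 higher, 230 lower). Libraries of a group also differed from each other by transcript length: the rank correlation across 10398 genes of a library's deviation from its group mean with transcript length ran from −0.28 in vehicle library 1 to 0.38 in vehicle library 3, and from −0.20 in thapsigargin library 2 to 0.22 in library 1. With a length term for each library, a setting chosen after seeing the data, the mitochondrial ribosomal genes had a median of −0.25 (47 of 77 lower) and the 60 respiratory genes with a known length −0.23 (33 lower), against −0.28 for the same 60 without it. The part of transcript length in these small falls beyond that setting was not tested.

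**Figure D4:**
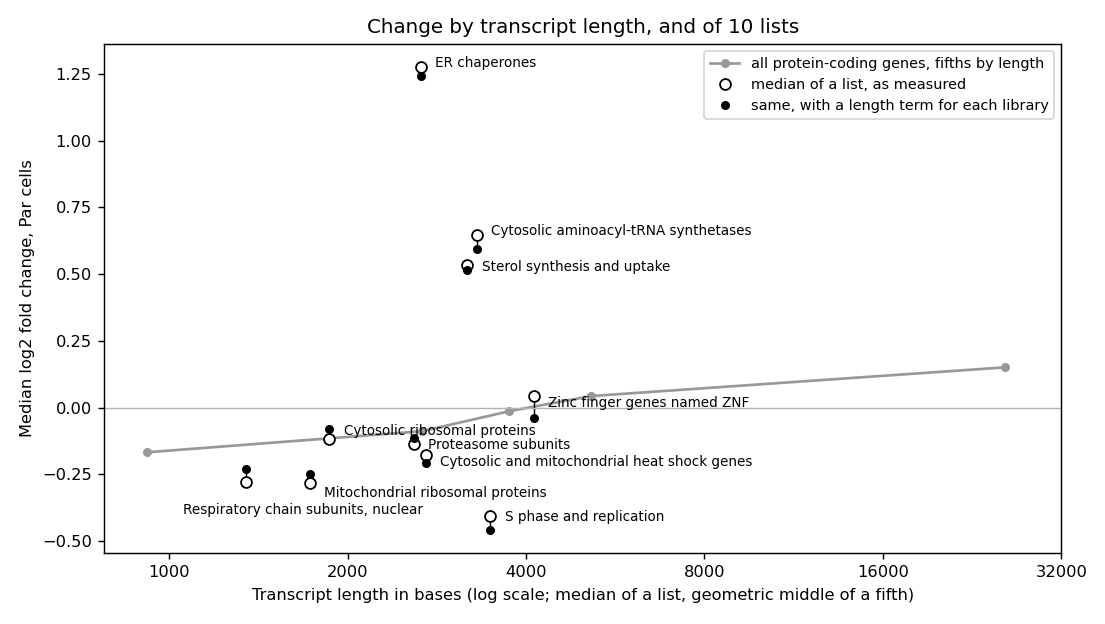
Median log2 fold change in Par cells against transcript length in bases on a log axis, for 5 equal length classes of protein-coding genes (grey line) and for 10 lists as measured (open circles) and with a length term for each library (filled circles). The grey line climbs from −0.17 to 0.15, the mitochondrial lists lie below it, and ER chaperones, at a median length of 2659 bases, lie far above it.

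Several SOX and lineage factor genes fell. SOX9, a ductal progenitor factor, fell from 548, 711 and 676 to 176, 217 and 174 (−1.77 ± 0.13), SOX4 from 273, 238 and 258 to 91.6, 89.6 and 70.7 (−1.61 ± 0.13) and SOX8 from 124, 117 and 148 to 25.5, 24.8 and 30.2 (−2.23 ± 0.23). GATA2, a zinc finger factor of blood and endothelial lineages, fell from 509, 430.5 and 528 to 122, 149 and 137 (−1.84 ± 0.09). In each of these 4 genes all thapsigargin values lay below all vehicle values. HOXA10, a factor of posterior patterning, fell from 159, 159 and 165 to 42.5, 36.7 and 22.9 (−2.25 ± 0.19), and HOXA13 (−1.97 ± 0.25) and HOXC13 (−1.72 ± 0.16) fell too. Of 14 SOX and pancreatic lineage genes tested, which do not include SOX8 or the HOX genes, 7 fell and 3 rose. This is beside 19.7% and 20.5% of all tested genes, so the share that rose was near the background. The largest fall among the 14 was SOX2 (−2.32 ± 0.26). The risers were KLF5 (1.24 ± 0.09), FOXA1 (0.90 ± 0.10) and GATA6 (0.36 ± 0.12), all factors of epithelial identity. For GATA6 the adjusted p reached 0.062 when 1 library was left out (limma with Benjamini-Hochberg). Pancreatic master regulator PDX1 was at 1.89 to 5.85 normalized counts in all 6 libraries, below the level for testing.

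Some targets and inhibitors of Wnt, BMP and Notch signals were lower. AXIN2, a feedback inhibitor and readout of Wnt signalling, fell from 61.9, 50.5 and 75.1 to 18.9, 15.1 and 15.6 (−1.84 ± 0.22). The Notch targets HES1 (−0.97 ± 0.11) and NRARP (−0.87 ± 0.10) fell, as did SMAD6, an inhibitor that BMP induces (−0.98 ± 0.13). The Notch ligand gene JAG1 went the other way, from 1038, 1352 and 1294 to 4604, 4376 and 4437 (1.87 ± 0.13). As lists, 8 of 26 Wnt genes fell (3 without vehicle library 3, 4 without thapsigargin library 1, 5 without vehicle library 1 or thapsigargin library 3) and 3 rose, and 10 of 27 BMP, ID and Notch genes fell and 3 rose. These compare with 19.7% and 20.5% of all genes. ID1, a BMP target, was at −0.18 ± 0.13 and not called.

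Epithelial genes rose in 9 of 21 and fell in 2. CDH1, E-cadherin, read 172, 263 and 179 in the vehicle libraries and 641, 476 and 483 in the thapsigargin libraries (1.39 ± 0.14), and ESRP1, a splicing factor of epithelial cells, rose (1.28 ± 0.07) while its paralog ESRP2 fell (−0.98 ± 0.11). KRT16, a keratin of stressed epidermis, is not a member of that list and went from 84.3, 101 and 85.8 to 1297, 1308 and 1315 (3.84 ± 0.16). Among long noncoding and snoRNA host transcripts 12 of 23 rose and 2 fell. MIR22HG rose by 1.77 ± 0.10, NEAT1, the scaffold of paraspeckles, read 1852, 1763 and 1813 in the vehicle libraries and 3355, 3055 and 2995 in the thapsigargin libraries (0.79 ± 0.07), GAS5, whose level is set by translation-coupled decay, rose by 0.67 ± 0.11, and MIR17HG, host of the miR-17-92 cluster, fell (−0.78 ± 0.10).

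Redox and autophagy genes were mixed. WIPI1, which acts in phagophore formation, rose by 1.85 ± 0.19, and MAP1LC3B, the LC3B protein of the autophagosome, read 358, 386 and 369.6 in the vehicle libraries and 1094, 1089.9 and 993 in the thapsigargin libraries (1.51 ± 0.09). SQSTM1, the autophagy receptor p62, was at 0.03 ± 0.06 and not called, and TFEB, a master factor of lysosomes, fell (−1.03 ± 0.25). Of 27 autophagy and lysosome genes 10 rose and 6 fell. Of 18 NRF2 targets 7 rose and 4 fell, with HMOX1, heme oxygenase 1, at 1.16 ± 0.26. Over all tested genes 20.5% rose and 19.7% fell, so the shares of both lists that fell were near the background.

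The ranking of all genes added some that no list held. ZNF165, a zinc finger gene best known from testis and tumours, read 129, 122 and 96.6 in the vehicle libraries and 1609, 1666 and 1676 in the thapsigargin libraries (3.83 ± 0.12). TSC22D3, the glucocorticoid-induced leucine zipper GILZ, read 160.4, 166 and 174 in the vehicle libraries and 2363, 2313 and 2219 in the thapsigargin libraries (3.78 ± 0.09). LURAP1L went from 20.3, 16.3 and 18.5 to 362, 370.1 and 359.7 (4.24 ± 0.15). The deepest fall in this ranking after FAM111B (−3.57 ± 0.12) was LRFN1, a synaptic adhesion gene, from 258, 235 and 226 to 32.1, 36.7 and 10.4 (−3.31 ± 0.32). GAS1, a growth arrest gene, fell from 78.2, 56.4 and 73.1 to 8.5, 27 and 23.9 (−1.89 ± 0.32). In each of the genes given by library the groups were separate.

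Par cells and GemR cells with siCont were then set against each other by an interaction term, the Par response minus the GemR response. It was called above 0 for 1003 of 13096 genes (7.66%) and below 0 for 935 (7.14%). Against GemR cells with siSTIM1 it was above 0 for 645 (4.93%) and below 0 for 400 (3.05%). Both tests use the same 6 Par libraries and so are not independent. The number below 0 against siCont was 1454 without GemR siCont vehicle library 1. The edgeR and DESeq2 fits on the recovered reads kept only GemR siSTIM1 vehicle library 1 of its group. Their counts against siSTIM1 therefore cannot check those of limma. The 1045 genes called against siSTIM1 became 621 without Par thapsigargin library 1 or GemR siSTIM1 vehicle library 1, 666 without GemR siSTIM1 thapsigargin library 1 and 691 without Par vehicle library 1. The ATF4 effectors were above in 14 of 20 members against siCont and in 11 of 20 against siSTIM1, with 0 below in either. The cytosolic tRNA synthetases were above in 11 of 20 and 4 of 20. The UPR sensors and factors were above in 7 and 8 of 21, and the ER chaperones in 7 and 1 of 20. On the other side, the SOX and lineage list was below in 7 and 2 of 14, with 0 above in either. The calcineurin and NFAT list was below in 4 and 2 of 12 and above in 0 and 2. The cytokines were below in 5 and 2 of 15 and above in 2 and 2. Against siSTIM1, the calcineurin and cytokine lists thus did not lean to either side.

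Named genes show what these differences look like. EGR1 had a log2 fold change of 2.32 in Par cells, −0.19 in GemR cells with siCont and 0.59 with siSTIM1, so the response was larger in Par by 2.50 ± 0.12 and 1.73 ± 0.12. OLR1, a scavenger receptor for oxidised LDL, rose in Par from 186, 191 and 178 to 531, 451 and 517 (1.42 ± 0.22) and had −1.5 and −0.23 in GemR, a difference of 2.93 ± 0.31 and 1.65 ± 0.31. INHBE, an activin subunit driven by ATF4, read 25.4, 40.1 and 52.7 in the vehicle libraries and 339, 394 and 364 in the thapsigargin libraries (3.24 ± 0.32), and its difference was 2.68 ± 0.46 against siCont. EPGN had 2.33 in Par against 0.28 and 0.28, and the difference from siSTIM1 cells was 2.05 ± 0.48, called by limma. The edgeR fit on the recovered reads kept only GemR siSTIM1 vehicle library 1 of its group, so it cannot check this call. THBS1, a matrix glycoprotein, had 1.29 in Par against −0.23 and −0.45.

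Other genes responded less in Par cells. NFATC2 had 1.54 in Par but 4.17 and 3.25 in GemR, and RCAN1 1.5 against 3.64 and 3.53. The difference of RCAN1 from siSTIM1 cells was −2.03 ± 0.17. CXCL1, not called in Par (0.17 ± 0.17), had 2.90 and 1.73, and SGK1, a kinase of stress and ion transport, 0.20 in Par, 3.17 and 1.22. NOV, a matricellular gene related to CTGF, had 1.16 against 3.85 and 2.52, while CTGF itself had 2.0 in Par against 0.01 and 0.37. PMP22, 1 of the IRE1 target mRNAs, had 0.49 in Par, 2.6 and 2.50 in GemR. A pair of genes changed in opposite directions: SOX9 fell in Par (−1.77) and had 1.07 in GemR with siCont and −0.20 with siSTIM1, and CXCR4, the receptor for CXCL12, fell in Par from 532, 476 and 533 to 171, 183 and 199.6 (−1.47 ± 0.11) and had 1.12 and −1.29. ER stress genes varied in how near the 3 settings lay. HSPA5 was at 2.79, 2.30 and 2.6, DNAJB9 at 3.42, 3.11 and 3.28, and VEGFA at 2.38, 2.26 and 2.25. DDIT3 was at 5.29, 3.35 and 4.32, and TRIB3 at 3.27, 1.42 and 2.24, highest in Par.

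**Figure D5:**
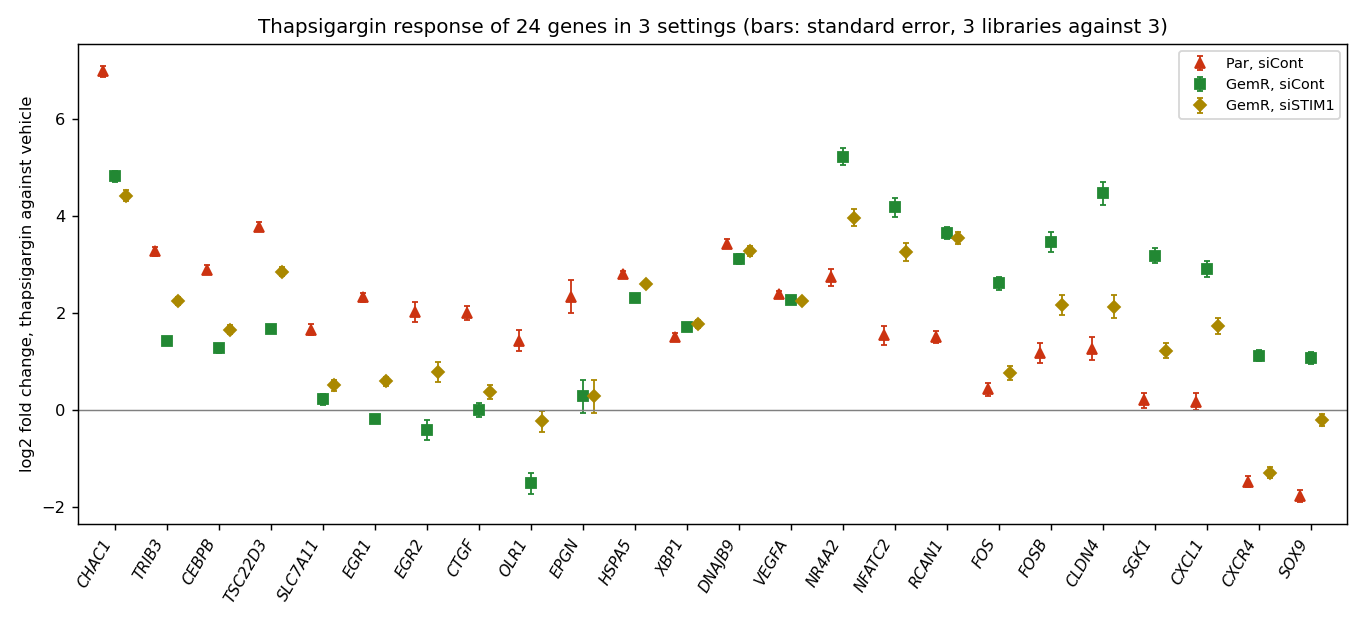
Log2 fold change of thapsigargin over vehicle with its standard error for 24 genes in Par cells (triangles), GemR cells with siCont (squares) and GemR cells with siSTIM1 (diamonds), each from 3 libraries against 3. On the left Par values are the highest, as for CHAC1 and EGR1, in the middle the 3 lie closer together for HSPA5, DNAJB9 and VEGFA, and on the right Par values are the lowest or negative, as for NFATC2 and SOX9.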

How the data were processed

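RNA was sequenced as mRNA libraries made with the TruSeq RNA kit v2, per the labels' protocols. Per the submitters' processing notes, STAR 2.6.0c, HTSeq 0.11.1, DESeq2 and the build hg38 were used, with no gene annotation named. The deposited signal values are read counts per gene divided by a size factor, normalized by the authors, with gene symbols as of that annotation (CTGF, WARS). All 18 columns were mapped to samples by name and 0 columns of per-sample values were left out. In each library the values are whole multiples of what 1 read is worth (100% within 0.01), which gave the reads per library. The authors also deposited a table of log2 fold changes and p-values for this comparison. It calls 5158 genes (2686 higher, 2472 lower), of which 4973 are called here with the same sign and 0 with the other, in the authors' deposited table.

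Normalized counts were taken as log2(value + 1), genes with a mean under 10 over the 18 libraries were left out, and limma 3.58.1 (trend, R 4.3.3, 12 residual degrees of freedom) was fitted to the 6 groups, with the 2 interaction terms as contrasts and Benjamini-Hochberg adjustment over 13096 genes. Genes with an adjusted p under 0.05 are called. Alternatives were the pseudocount, the filter, scaling, the variance model, a fit to only the libraries compared, a replicate block and leaving out each library. Others were edgeR 4.0.16 and DESeq2 1.42.0 on the recovered reads. The edgeR and DESeq2 fits left out libraries whose step, the value of 1 read, was too near 1. These were Par vehicle library 1, GemR siSTIM1 vehicle libraries 2 and 3 and GemR siSTIM1 thapsigargin library 1. GemR siSTIM1 vehicle library 1 was then alone in its group. A length term for each library was added after seeing the data. The fit was tested on simulated data. Members, gene lists and motifs were chosen with earlier results of these data known. Named genes are those always listed, the 20 highest and 20 lowest with separate groups and a mean of at least 50, up to 4 called members per list and direction with up to 2 not called, the 8 highest and 8 lowest of each interaction, and promoters of genes at least 2-fold higher that hold a motif. Promoters came from RefSeq (GRCh38.p14), 250 bases before each start, matched for 10382 tested genes, 598 of them under an older symbol. Depth, 8922439 to 15128178 reads in the Par libraries, limits genes with few counts. Some genes are not reported here. Figures were drawn with matplotlib 3.10.9.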

Additional observations from a re-analysis of the deposited data

Results flagged for a closer look

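The 15 differences in response between Par and GemR cells that follow were past an adjusted p of 0.05 in limma's interaction test (Benjamini-Hochberg), which compares the thapsigargin effect in the 2 lines directly, and are given as log2 differences, Par minus GemR. Both comparisons use the same Par libraries. Against GemR cells with siCont, the Par response was higher for EGR1 (2.50 ± 0.12), OLR1 (2.93 ± 0.31) and INHBE (2.68 ± 0.46), and lower for NFATC2 (−2.64 ± 0.27), SGK1 (−2.97 ± 0.22), NOV (−2.68 ± 0.19), SOX9 (−2.84 ± 0.18), CXCR4 (−2.59 ± 0.16) and CXCL1 (−2.73 ± 0.24). Against GemR cells with siSTIM1, it was higher for EGR1 (1.73 ± 0.12), OLR1 (1.65 ± 0.31), EPGN (2.05 ± 0.48) and THBS1 (1.74 ± 0.21), and lower for RCAN1 (−2.03 ± 0.17) and PMP22 (−2.01 ± 0.16). The largest adjusted p among the siCont differences was 0.00039, for INHBE, and among the siSTIM1 differences 0.012, for EPGN. The lines differ in gemcitabine as well as in history, since the GemR cells were kept in 64 nM of the drug, and these cannot be told apart. In the siSTIM1 differences the siRNA differs too, since Par cells had siCont, so the knockdown cannot be told apart from line and drug there.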

How the results depend on the processing

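The number of genes called in the Par response, 5253, ran from 4116 (DESeq2) to 6691 (only the libraries compared), and from 4176 to 4696 when 1 library was left out. The DESeq2 and edgeR fits lacked Par vehicle library 1. No gene called in the 13096-gene fit was called with the other sign in any alternative. Scaling moved the balance: quantile normalization called 2360 higher and 3247 lower, and the length term 2383 and 3352. Requiring a mean of 50 left 121 genes called at least 2-fold lower against 205. The difference from GemR cells with siCont, 1938 genes, ran from 1529 to 2943 when 1 library was left out (Par response above from 777 to 1489, below from 727 to 1454), the highest without GemR siCont vehicle library 1. The difference from siSTIM1 cells, 1045 genes, moved more. It was 2164 (1258 above, 906 below) with only the libraries compared, 209 (124 and 85) with edgeR, 364 (241 and 123) with DESeq2, and 621 to 1081 (380 to 698 above, 226 to 383 below) when 1 library was left out, and 644 were below with the length term. The edgeR and DESeq2 fits kept only GemR siSTIM1 vehicle library 1 of its group. Their counts against siSTIM1 therefore cannot check the limma count, and no conclusion is drawn from them. The cause of the moves in the other settings was not tested.

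Counts of list members mostly held. The respiratory list's 32 lower genes became 58 with quantile normalization, 61 with only the libraries compared, 18 with edgeR and with DESeq2, and 18 to 30 when 1 library was left out. Mitochondrial ribosomal genes called lower were 25 with DESeq2. All edgeR and DESeq2 values here come from fits without Par vehicle library 1. Cytosolic ribosomal genes called lower (4) became 39 with quantile normalization, 35 with only the libraries compared, 2 without the filter or without trend, 1 with edgeR and with DESeq2, and 1 to 2 when any 1 library was left out. Higher calcineurin and NFAT genes were 3 with quantile normalization, higher ERK feedback genes 13 with only the libraries compared, lower mitochondrial synthetases 5 with the length term, and lower glycolysis genes 5 without the filter. With 1 library left out, the range was 1 to 2 for lower mitochondrial synthetases (1 without vehicle library 3 or thapsigargin library 3), 7 to 9 for BCL2 and death receptor genes, 5 to 8 for p53 targets, 3 to 8 for lower Wnt genes and 5 to 7 for lower glycolysis genes. Sign changes were seen only for genes that were not called. With quantile normalization CNPY3 was at −0.0058, ERP29 −0.037, ITPR3 −0.030, MYC −0.066 and SQSTM1 −0.076. ITPR3 was at −0.016 with edgeR and −0.17 with the length term. NFATC1 was at −0.0095 with the length term and ran from −0.076 to 0.22 without 1 library, TGFA from −0.038 to 0.013 and BTC from −0.0072 to 0.57.

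Replicate numbers did not pair the libraries: same-numbered vehicle and thapsigargin libraries had deviations correlated at −0.08, −0.05 and 0.02. With the number as a replicate block over all 18 libraries 5472 genes were called, and with a block within each cell line and siRNA 5196. Depth limits genes with few counts: members of the lists under a mean of 10 were not tested.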

Other observations

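Of 16 genes of the YAP and TEAD programme, which reads cell shape and tension, 9 rose and 2 fell in Par cells (median log2 fold change 0.46), beside 20.5% and 19.7% of all tested genes. AXL, a receptor kinase, read 1989, 2415 and 2259.8 in the vehicle libraries and 3747, 3794 and 3933 in the thapsigargin libraries (0.79 ± 0.08), and AMOTL2, an inhibitor that YAP induces, 2115, 2639 and 2409 in the vehicle libraries and 4275, 4040.2 and 4014 in the thapsigargin libraries (0.79 ± 0.10). ANKRD1, a YAP target of muscle and epithelium, went the other way, from 1431, 1283 and 1417 to 801, 933 and 920.1 (−0.64 ± 0.09). YAP1 itself was not called (0.16 ± 0.09). Among the EMT factors, SNAI1 read 24.4, 16.3 and 25.4 in the vehicle libraries and 62.3, 70.1 and 52 in the thapsigargin libraries (1.45 ± 0.37), SNAI2 618, 773 and 691 in the vehicle libraries and 1094, 1151 and 1019 in the thapsigargin libraries (0.65 ± 0.09) and TWIST1 173, 129 and 154 in the vehicle libraries and 101, 85.3 and 79 in the thapsigargin libraries (−0.77 ± 0.15), and ZEB1, named after its values were seen, was not called (−0.21 ± 0.16) except with the length term (adjusted p = 0.042, limma with Benjamini-Hochberg).

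Of 13 tested genes that handle gemcitabine 3 rose and 4 fell, beside 20.5% and 19.7% of all tested genes. The share that rose was near that background. The largest change was a rise, of NT5E (0.92 ± 0.08). SLC29A1, the nucleoside transporter through which the drug enters, fell from 831, 880.2 and 859 to 465, 557 and 491 (−0.77 ± 0.08). All its thapsigargin values lay below all its vehicle values. RRM2, the regulated subunit of ribonucleotide reductase, fell less, from 3096, 2923 and 2929.8 to 2252, 2338 and 2306 (−0.38 ± 0.06). CDA, the deaminase that inactivates the drug, was at 0 in all 6 libraries. Of 22 interferon-stimulated genes 5 rose and 2 fell, against 20.5% and 19.7% of all tested genes, so the share that rose was near the background. ISG20, an exonuclease gene, read 118, 101 and 82.9 in the vehicle libraries and 271, 272 and 235 in the thapsigargin libraries (1.37 ± 0.16). SLC25A25, a calcium-regulated ATP-Mg carrier of mitochondria, read 619, 799 and 674 in the vehicle libraries and 1961, 1764 and 1906 in the thapsigargin libraries (1.43 ± 0.08), and SLC25A1, the citrate carrier, 1612, 1570.5 and 1613 in the vehicle libraries and 1017, 1138 and 1147 in the thapsigargin libraries (−0.54 ± 0.10).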
